A study of Drosophila melanogaster with 3 samples.

Results

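Among the 5056 reproducible peaks of CG4318-eGFP in Drosophila melanogaster prepupae, 294 lay near the starts of non-coding RNA genes and away from those of protein-coding genes. A peak was counted when its summit was over 500 bp from every annotated transcription start of a protein-coding gene and at most 1000 bp from the start of a gene of biotype ncRNA, pre_miRNA, snoRNA, snRNA or tRNA in the Ensembl BDGP6 annotation. The choice used position only, and no signal score. A further 103 summits lay within 1000 bp of a non-coding start but also within 500 bp of a protein-coding start, and were not counted. The study was a chromatin immunoprecipitation followed by sequencing (ChIP-seq) of whole prepupae of both sexes pooled, from a transgenic line that stably expresses CG4318 with GFP at its C-terminus, pulled down with an antibody against GFP after sonication. All samples carried the transgene, and there were 3 biological replicates of 1 group, so there is no comparison between conditions. The labels do not say what drives the transgene, and whole animals mix all cell types. The age entry of the labels conflicts with the prepupal stage, and the stage was used; a control experiment named in the labels was not analysed here.

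Non-coding RNA genes make transcripts that act without being translated. The annotation's ncRNA class holds mainly long non-coding RNAs (lncRNA in their names) and transcripts antisense to other genes (asRNA), most of them without a known function. A pre_miRNA is the hairpin from which Dicer cuts a microRNA, which represses mRNAs that pair with its seed; tRNAs are transcribed by RNA polymerase III from promoters inside the gene, snRNAs build the spliceosome, and snoRNAs guide the modification of ribosomal and other RNAs. The annotated start of a hairpin is where the hairpin begins and not where its primary transcript starts, and many fly snoRNAs are cut from introns, so for these classes a start need not be a promoter.

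The sequences under the peaks that the account below turns on are shown as windows of the dm6 reference reaching 50 bp to each side of the summit, plus strand, with every TATAAA or AATATT on either strand in capitals. Both motifs were searched in all windows, and their shares are given further on. The strongest peak, its partner 400 bp to the left, and the corresponding pairs for the peaks at lncRNA:CR46035 and at lncRNA:CR43626 are shown because the summit is poorer in G and C than its flank. The summit of lncRNA:CR31044 is shown because it is richer in G and C than the window to its left, and those of lncRNA:Hsromega and tRNA:Gln-TTG-2-1 because each is the strongest well-studied long RNA or the strongest tRNA among the peaks.
lncRNA:CR44619, summit, dm6 chrX:12751267-12751367, plus strand: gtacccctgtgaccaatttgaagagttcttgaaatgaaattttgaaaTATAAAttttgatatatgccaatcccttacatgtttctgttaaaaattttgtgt
lncRNA:CR44619, 400 bp to the left, dm6 chrX:12750867-12750967, plus strand: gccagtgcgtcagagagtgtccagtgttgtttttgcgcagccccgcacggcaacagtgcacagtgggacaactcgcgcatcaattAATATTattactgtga
lncRNA:CR46035, summit, dm6 chr3R:17704380-17704480, plus strand: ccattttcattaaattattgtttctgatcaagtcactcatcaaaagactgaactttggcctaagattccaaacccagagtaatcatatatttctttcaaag
lncRNA:CR46035, 400 bp to the left, dm6 chr3R:17703980-17704080, plus strand: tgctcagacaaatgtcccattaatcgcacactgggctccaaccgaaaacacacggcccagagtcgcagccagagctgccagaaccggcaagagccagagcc
lncRNA:CR43626, summit, dm6 chr3L:3250216-3250316, plus strand: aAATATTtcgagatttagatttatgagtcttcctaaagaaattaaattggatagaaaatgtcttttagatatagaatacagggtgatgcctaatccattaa
lncRNA:CR43626, 400 bp to the left, dm6 chr3L:3249816-3249916, plus strand: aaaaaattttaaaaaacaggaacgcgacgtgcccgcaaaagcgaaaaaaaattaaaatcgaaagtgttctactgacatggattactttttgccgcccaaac
lncRNA:CR31044, summit, dm6 chr3R:29214401-29214501, plus strand: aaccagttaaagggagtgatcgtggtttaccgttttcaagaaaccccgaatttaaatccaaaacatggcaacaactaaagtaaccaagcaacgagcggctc
lncRNA:Hsromega, summit, dm6 chr3R:21296271-21296371, plus strand: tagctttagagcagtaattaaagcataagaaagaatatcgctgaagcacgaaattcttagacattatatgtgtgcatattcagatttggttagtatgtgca
tRNA:Gln-TTG-2-1, summit, dm6 chrX:3427684-3427784, plus strand: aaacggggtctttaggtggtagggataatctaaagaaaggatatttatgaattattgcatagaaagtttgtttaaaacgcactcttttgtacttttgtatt

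GC content of these summit windows was 28.7% at lncRNA:CR44619, 31.7% at lncRNA:CR46035, 26.7% at lncRNA:CR43626, 42.6% at lncRNA:CR31044, 32.7% at lncRNA:Hsromega and 30.7% at tRNA:Gln-TTG-2-1. The windows 400 bp to the left held 51.5%, 58.4%, 36.6%, 35.6%, 33.7% and 47.5% in the same order, so lncRNA:CR31044 was richer in G and C at its summit than to the left, and lncRNA:Hsromega differed little.

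Of the microRNAs described below, 7 are shown by their mature sequence, in RNA letters: well-studied ones with a summit that met the rule, and mir-2b-2, which shares a summit with mir-2a-1. They are given with the seed (bases 2 to 8) in capitals. They were read from the Release 6 genome at the coordinates RefSeq gives for the mature arm named.
mir-282, 5p arm, chr3L:3251038-3251061, plus strand: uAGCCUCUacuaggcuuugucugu
mir-ban, 3p arm, chr3L:642259-642281, plus strand: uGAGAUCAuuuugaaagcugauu
mir-275, 3p arm, chr2L:7425853-7425875, plus strand: uCAGGUACcugaaguagcgcgcg
mir-305, 5p arm, chr2L:7425979-7426001, plus strand: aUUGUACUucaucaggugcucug
mir-965, 3p arm, chr2L:243055-243076, minus strand: uAAGCGUAuagcuuuuccccuu
mir-2a-1, 3p arm, chr2L:19569902-19569924, minus strand: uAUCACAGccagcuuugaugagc
mir-2b-2, 3p arm, chr2L:19570189-19570211, minus strand: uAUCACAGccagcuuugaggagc

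The hairpins mir-2a-1 and mir-2b-2 lie beside each other in an intron of spi and share the seed AUCACAG. The other 5 have 5 different seeds.

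Peaks were more frequent near non-coding starts than the amount of such sequence. The 294 summits were 5.81% of all reproducible summits (95% Wilson interval 5.2 to 6.49), whereas 3.55% of the bases of the 7 chromosome arms met the same rule, a ratio of 1.64 (1.47 to 1.83; two-sided exact binomial p = 1.34e-15). At the share of bases, 179 summits would have met it. The strongest 5056 regions of each replicate, its top list, gave 295 summits in replicate 1, 281 in replicate 2 and 293 in replicate 3, or 5.83%, 5.56% and 5.80%. Their mean was 5.73% ± 0.150 (SD, n = 3), and all 3 replicates lay above the share of bases. Summits are not independent samples and the reproducible list was made from these same replicates, so the interval covers counting error over peaks only. The files hold no read counts, and the depth of the libraries is unknown.

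Of the 5 classes, ncRNA passed the test. Its starts were nearest to 271 of the summits, 5.36% (4.77 to 6.02) against 2.89% of bases, a ratio of 1.86 (1.65 to 2.08; exact binomial test, Benjamini-Hochberg adjusted over the 5 biotypes, p = 2.35e-20). Within the class, genes named lncRNA held 251 summits, 4.96% against 2.32% of bases (ratio 2.14, 1.90 to 2.42). Genes named asRNA held 18, 0.356% against 0.476% (ratio 0.748, 0.474 to 1.18), and the intervals of these 2 ratios do not overlap. This split was not planned and follows gene names, not strand, and the 2 ratios were not tested against each other. Whether the bases near these 2 groups differ in kind, such as in exons of protein-coding genes, was not examined. For 73 peaks the nearest start lay inside a protein-coding gene on its opposite strand only, many of them named lncRNA. No share by strand was computed. The remaining 2 summits lay near ncRNA genes with other names.

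For the small RNA classes no difference from the share of bases passed the adjusted threshold of 0.05. The pre_miRNA hairpins had 10 summits, 0.198% (0.107 to 0.364) against 0.255% of bases (adjusted exact binomial p = 0.718). The tRNA genes had 11, 0.218% (0.122 to 0.389) against 0.232% (adjusted exact binomial p = 1.00). The snoRNA genes had 2, 0.0396% (0.0108 to 0.144) against 0.143% (adjusted exact binomial p = 0.145). No summit was nearest to a snRNA start, which allows a share of up to 0.0759%, and 0.0319% of bases met the rule for that class (adjusted exact binomial p = 0.699). With 0.0319% to 0.255% of bases per class these counts are small, and a ratio of 2.38 for snRNA lies within its interval.

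**Figure D1:**
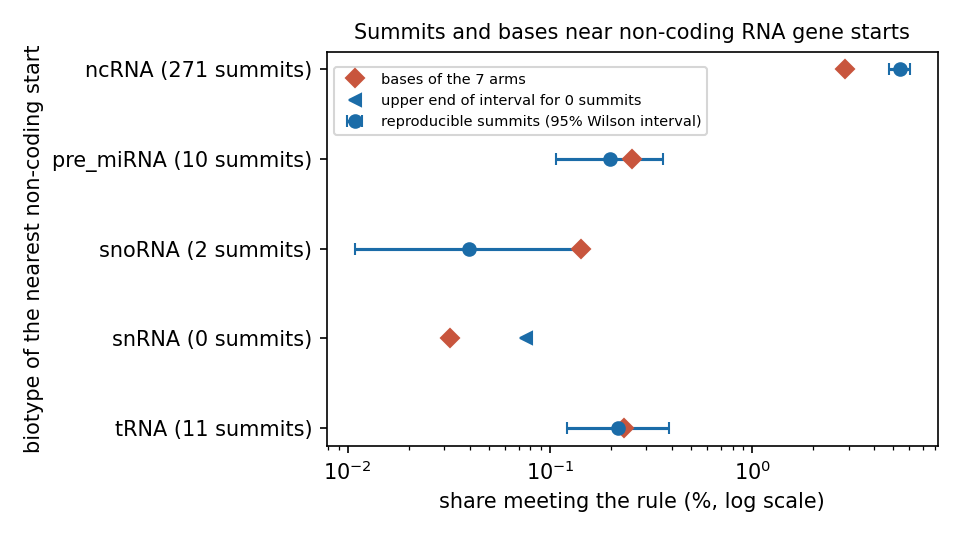
Share of reproducible summits (circles, with 95% Wilson intervals) and of bases (diamonds) that met the rule, in percent on a log scale, by the biotype of the nearest non-coding start; the triangle is the upper end of the interval for 0 summits. The ncRNA circle at 5.36% lies above its diamond at 2.89%, and each of the other 4 diamonds lies within or at the edge of its interval.

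Below 1000 bp, the ratio was lowest in the bin at the start itself, though its interval overlaps those of the bins around it. Over summits and bases more than 500 bp from protein-coding starts, called non-promoter below, 7.63% of 3852 summits and 4.0% of bases met the rule, a ratio of 1.91 (1.71 to 2.13). Divided by distance, the ratio was 1.15 (0.756 to 1.76) within 99 bp of a non-coding start, with 21 summits. From 100 to 899 bp it lay between 1.75 and 2.42 in each of the 100 bp bins, with all lower interval ends above 1. It was 1.48 (0.970 to 2.26) from 900 to 999 bp, 1.38 (1.13 to 1.68) from 1000 to 1499 bp and 1.28 from 1500 to 1999 bp. Farther out the ratio stayed above 1 up to 9999 bp. It was 1.13 (0.960 to 1.33) from 2000 to 2999 bp and 1.20 (1.07 to 1.34) from 3000 to 4999 bp. From 5000 to 9999 bp it was 1.15 (1.07 to 1.25), and at 10000 bp or more 0.883 (0.861 to 0.904). The median distance was 488 bp, and 150 of the 294 summits lay within 500 bp. Upstream of the start there were 156 summits and downstream 138. By 200 bp steps, 39 lay in the last step upstream and 16 in the first step downstream.

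**Figure D2:**
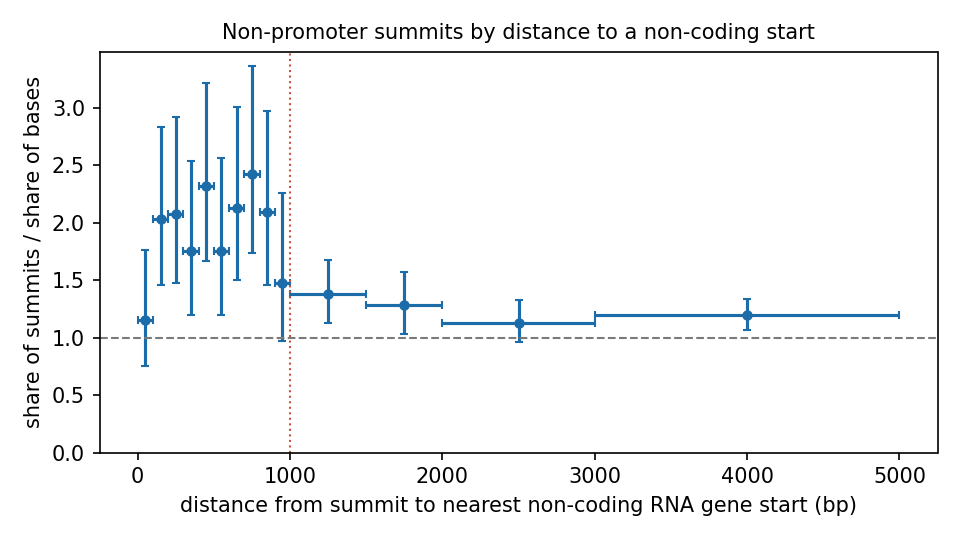
Share of non-promoter summits divided by the share of non-promoter bases (y axis) by distance to the nearest non-coding start in bp (x axis). Vertical bars are 95% Wilson intervals for counting error, horizontal bars the bins, the dashed line equality and the dotted line the 1000 bp limit; the ratio is 1.15 in the first bin, 1.75 to 2.42 between 100 and 899 bp and 1.13 to 1.38 from 1000 to 5000 bp.

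Peaks on both sides of each distance limit were as follows. Just inside 1000 bp, at 993, 998 and 1000 bp, the signal scores were 109.3, 124.3 and 168.0; just outside, at 1011, 1015 and 1020 bp, they were 294.1, 706.9 and 277.3. Just over 500 bp from a protein-coding start, at 524, 530 and 547 bp, they were 122.1, 737.5 and 168.1, and at 463, 471 and 484 bp, where summits were not counted, 471.7, 424.4 and 503.1. The signal score is the authors' value per peak on an unstated scale, and is used here only within 1 list.

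Intergenic sequence held most of these peaks among the classes of sequence, and the highest ratio. There were 131 intergenic summits among the 294 (44.6%), 80 in introns of protein-coding genes (27.2%), 63 in exons of non-coding genes (21.4%), 18 in introns of non-coding genes (6.12%) and 2 in exons of protein-coding genes (0.680%). Among the other 3558 non-promoter peaks, 70.7% lay in introns of protein-coding genes and 25.8% in intergenic sequence. Introns of protein-coding genes made up 20.6% of the bases that meet the rule and 43.4% of all non-promoter bases. The 27.2% is therefore to be read against 20.6%, and not against 70.7%. Taking each class of sequence by itself, 12.5% of intergenic non-promoter summits met the rule against 3.91% of intergenic non-promoter bases (ratio 3.19, 2.72 to 3.74). In introns of protein-coding genes the ratio was 1.62 (1.31 to 2.01), with 3.08% against 1.90%, and in introns of non-coding genes 2.36 (1.56 to 3.39), with 26.9% against 11.4%. In exons of non-coding genes, most of which lie close to a start, 65.6% of summits and 67.3% of bases met it, a ratio of 0.975 (0.827 to 1.10). These classes were examined after the data had been seen. The nearest non-coding start lay inside a protein-coding gene for 34.4% of the 294 peaks, for 73 on the opposite strand only and for 26 on the same strand only.

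**Figure D3:**
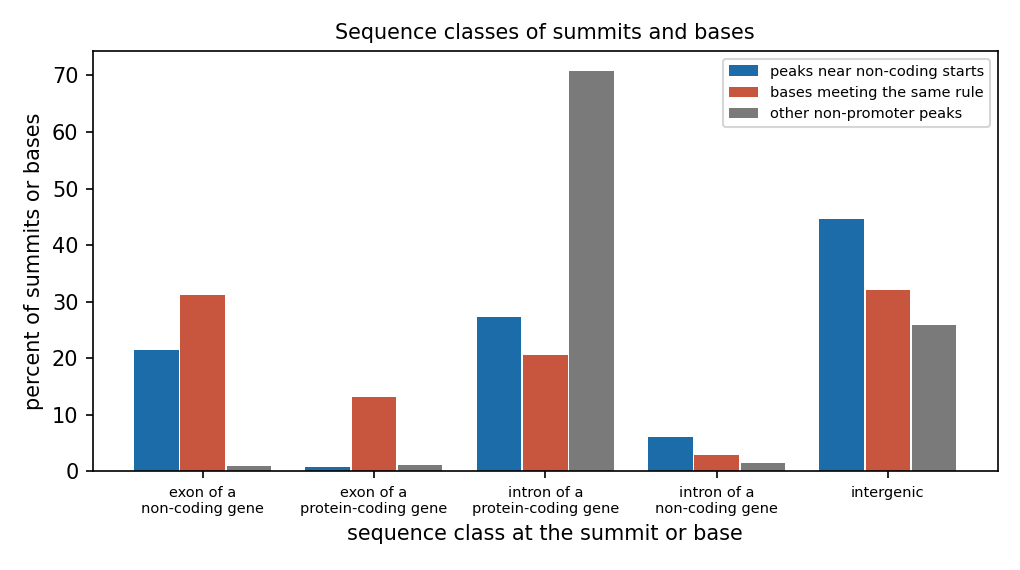
Percent of the 294 peaks near non-coding starts, of the bases that meet the same rule and of the 3558 other non-promoter peaks (y axis) in 5 classes of sequence (x axis). Introns of protein-coding genes hold 27.2% of the first group, 20.6% of the bases that meet the rule and 70.7% of the third group. Exons of protein-coding genes hold 13.1% of those bases but 0.680% of the 294 peaks. The third group is alike, with 1.15% of its peaks there against 20.9% of all non-promoter bases (not drawn).

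By arm, there were 79 on 3L, 73 on 3R, 64 on 2L, 42 on 2R and 36 on X, and none on the small chromosome 4 or on Y. Arm 3L held 26.9% of the peaks and 21.9% of the bases that meet the rule, 3R 24.8% and 23.0%, 2L 21.8% and 23.9%, 2R 14.3% and 16.9%, and X 12.2% and 12.4%. The differences were not tested. On the arms that held any, their share of the arm's own reproducible peaks ranged from 3.53% on X to 6.99% on 2L. On chromosome 4 they were 0% of 12 reproducible peaks. No candidate region of the pooled list lay on Y.

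Signal scores ranged from 108.7 to 1962, with a median of 184.4 and quartiles of 142.6 and 323.7. Other non-promoter peaks had a median of 181.2 (136.3 to 275.7) and promoter peaks, within 500 bp of a protein-coding start, 242.8 (155.3 to 437.6). The medians of the 2 non-promoter groups were close, and the upper quartile was higher near non-coding starts. All reproducible peaks together had a median of 193.3. The strongest 100 of the 5056 peaks held 1.36% of the 294, 0.927% of other non-promoter peaks and 1.98% of all reproducible peaks. For the strongest 1000 these shares were 22.8%, 15.1% and 19.8%. Among the strongest 500 there were 36 of the 294 (12.2%). This compares with 6.32% of other non-promoter peaks, 19.9% of promoter peaks and 9.89% of all reproducible peaks. All but 1 of these 36 had an ncRNA gene nearest, as did 271 of the whole 294. The median score was 184.9 for the ncRNA class, 189.9 for the 10 pre_miRNA peaks and 152.5 for the 11 tRNA peaks, and the 2 snoRNA peaks had 121.1 and 532.8. Scores of peaks are given as a description, with no test.

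**Figure D4:**
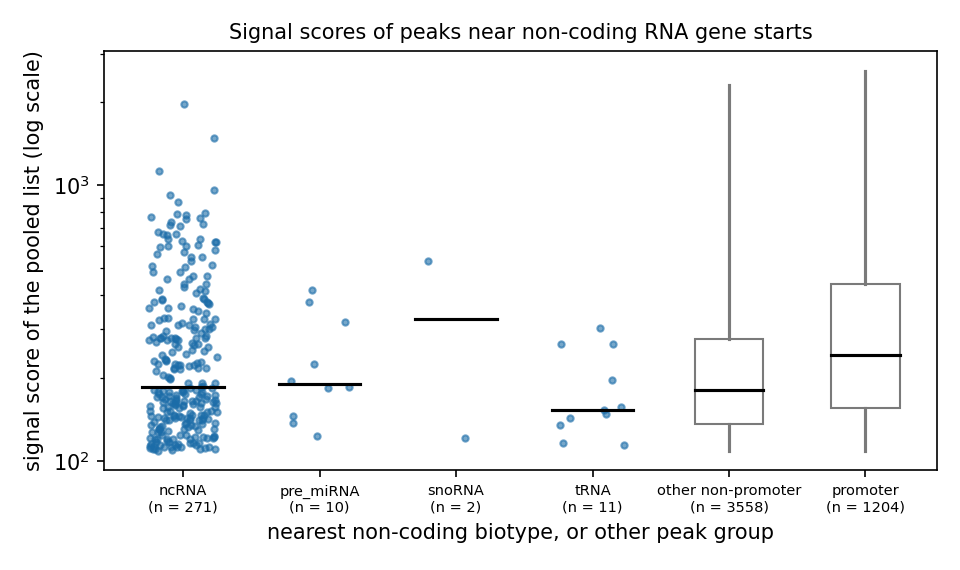
Signal score of the pooled list (log scale) of each peak near a non-coding start, by nearest biotype (points, black bar the median), beside the other non-promoter and the promoter peaks (box, quartiles; bar, median; line, range). The medians are 184.9 for ncRNA, 189.9 for pre_miRNA and 152.5 for tRNA, against 181.2 and 242.8 in the 2 other groups.

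The strongest peak lay in 1 lncRNA gene and upstream of another. Its summit on X at 12751317, in an exon of lncRNA:Vinr and 550 bp upstream of lncRNA:CR44619 (FBgn0265830, chrX:12751867-12754571, plus strand), had a score of 1962 and rank 6 of all reproducible peaks. It ranked 4 in replicate 1, 8 in replicate 2 and 19 in replicate 3. A further summit, 516 bp inside lncRNA:CR44619 at 12752383, had a score of 959.0 and ranks of 59, 154 and 168. The nearest protein-coding start, that of CG4004, was 5000 and 6066 bp from the summits.

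The gene osa, which encodes a subunit of the Brahma chromatin remodelling complex, contains 2 lncRNA genes on its opposite strand with strong peaks. The peak at lncRNA:CR46035 (FBgn0267702, chr3R:17703695-17705581, plus strand) had a score of 1483, the 24th in rank, with its summit 735 bp inside the gene at 17704430. It ranked 27, 24 and 23 in replicates 1, 2 and 3. The peak 149 bp upstream of lncRNA:CR46036 had a score of 761.9 and ranks of 215 and 171 in replicates 1 and 2, and no region of replicate 3 overlapped it. The nearest protein-coding starts were 13920 and 13521 bp away.

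lncRNA:CR31044 (FBgn0051044, chr3R:29214562-29219667, plus strand) contains the hairpins of mir-279 and mir-996, microRNAs of which mir-279 limits the formation of carbon dioxide sensing neurons. Its peak, 111 bp upstream at 29214451, had a score of 1125 and rank 57. It ranked 46 in replicate 1 and 71 in replicate 2 and was not listed among the 30000 candidates of replicate 3, so the replicates differ at this site. The hairpin of mir-279 itself begins 1134 bp from the summit.

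Of the other peaks among the 20 strongest, 5 had their nearest non-coding start inside a protein-coding gene on its opposite strand. asRNA:CR45804 lies in Prps, which encodes phosphoribosyl pyrophosphate synthetase, with a score of 764.0. asRNA:CR43971, in Ctps (CTP synthase), had 719.7 and asRNA:CR44512, in Zw (glucose-6-phosphate dehydrogenase), 666.1. asRNA:CR44429 lies in gce, which encodes a juvenile hormone receptor, with a score of 737.5 and its summit 530 bp from a start of gce. lncRNA:CR46102, in the lipophorin receptor gene LpR2, had 754.2. All 5 were in the top lists of all 3 replicates, at ranks from 138 to 419.

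Intergenic peaks or peaks in exons of non-coding genes made up the rest of the 20 strongest. The protein-coding start nearest to lncRNA:CR44339, with a score of 870.2, was that of the Polycomb group gene Psc, 4215 bp away. The one nearest to lncRNA:CR44810, with 786.6, was that of slbo, a C/EBP transcription factor, 4530 bp away. lncRNA:CR45595 had 924.7, 1205 bp from l(3)neo38, and lncRNA:CR44651 had 791.3, lncRNA:CR45392 776.7, lncRNA:CR44676 725.0, lncRNA:CR45251 712.2, lncRNA:CR44091 677.0, lncRNA:CR43626 667.0 and lncRNA:CR42794 657.3. These are RNAs without a described role here. Their ranks in the 3 replicates all lay between 71 and 538. The weakest of the 294 peaks, at lncRNA:CR45935 on 3L, had a score of 108.7, rank 5055 of 5056 and replicate ranks of 4212, 8468 and 7077.

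**Figure D5:**
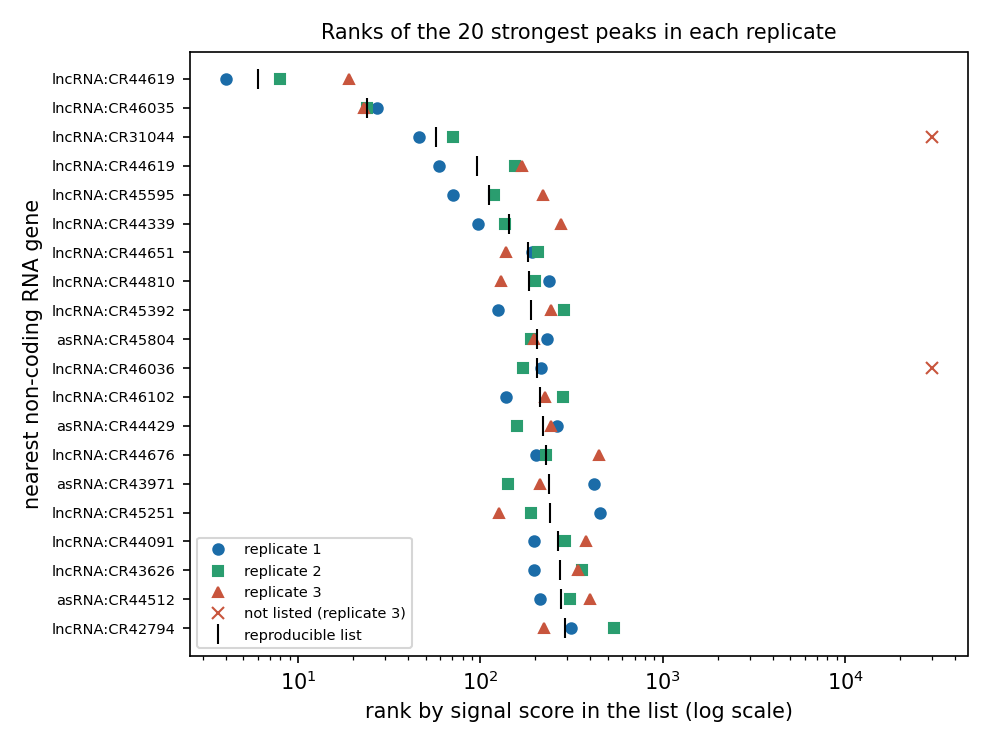
Rank by signal score (log scale) of the 20 strongest peaks near non-coding starts in the reproducible list (bars) and in each replicate (symbols); crosses at the right mark sites with no region among the 30000 candidates of replicate 3. The peaks at lncRNA:CR31044 and lncRNA:CR46036 carry a cross, and the others rank at 538 or better in every replicate.

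Some genes carried several summits, which are not independent of each other. lncRNA:CR43857 and lncRNA:CR45355 had 4 each within 1000 bp of their starts, and lncRNA:CR43626, lncRNA:CR45643, lncRNA:CR45243 and lncRNA:CR45352 had 3 each. lncRNA:CR43626 had scores of 667.0, 598.1 and 112.0, all with overlapping regions in the top lists of all 3 replicates. lncRNA:CR45643, with 624.5, 583.4 and 374.3, lies nearest to tara, and lncRNA:CR45243, with 512.7, 470.1 and 274.0, nearest to fng, which encodes the glycosyltransferase Fringe that modifies Notch. The 294 summits fell into 275 merged regions and had 243 distinct nearest genes, and 33 had more than 1 non-coding gene within 1000 bp, up to 4.

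Of 3395 genes of the 5 biotypes that could meet the rule, 272 (8.01%) had such a summit within 1000 bp of a start. By biotype this was 238 of 2545 ncRNA genes (9.35%), 14 of 260 pre_miRNA genes (5.38%), 7 of 269 snoRNA genes (2.60%), 0 of 32 snRNA genes (0%) and 13 of 289 tRNA genes (4.50%). Counting any reproducible summit, 359 of 3399 genes of these biotypes (10.6%) and 1687 of 13968 protein-coding genes (12.1%) had one within 1000 bp.

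Of 51 listed microRNA genes, 7 (13.7%) had a summit that met the rule, beside 5.38% of all pre_miRNA genes. The list was chosen with earlier results of these data known, and the shares were not tested against each other. mir-282 had the highest score, 667.0, with the summit 756 bp from the hairpin inside its host lncRNA:CR43626, nearer to a start of that host, and ranks of 197, 361 and 341 in the replicates. mir-965, which acts in the abdominal histoblasts at metamorphosis, had a summit 914 bp upstream in an intron of kis with a score of 319.7; replicates 2 and 3 ranked it 778 and 816, and replicate 1 did not list it. The growth-promoting bantam (mir-ban) had a summit 455 bp downstream with a score of 194.8 and ranks of 3246, 1795 and 2360.

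The other 4 of these hairpins, like mir-282, had summits that lay within 1000 bp of more than 1 non-coding gene. mir-8, a regulator of body growth, lay 932 bp from a summit with a score of 140.6 that was nearer to a start of its host lncRNA:CR43650. mir-275 and mir-305, the latter acting with insulin signalling in intestinal stem cells, lay 396 and 573 bp from 1 summit, with a score of 122.9, which was listed in replicates 1 and 2 but not 3. mir-2a-1, whose family represses the cell death genes reaper, grim and sickle, lay 983 bp from a summit with a score of 145.1 nearer to mir-2b-2, also absent from replicate 3. None of the other listed microRNA genes had a summit that met the rule. mir-92a lay 586 bp from a summit with a score of 305.7, which was not counted because a protein-coding start lay within 500 bp of it. The mir-100, mir-let7 and mir-125 cluster, which is induced at metamorphosis, lay 3241, 3841 and 4122 bp from the nearest reproducible summit.

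Hairpins outside that list lay mostly in introns. The peak 115 bp upstream of mir-2491, in an intron shared by CG42346 and fog, had a score of 416.4, and that near mir-9377, in Tis11, which encodes an mRNA decay factor, 377.9. mir-9378, in CG17124, had 224.9, mir-4968, in Mob2, 185.0, and mir-274, in CG32085, 183.3, and mir-4981 had 136.6 in intergenic sequence. The 2 strongest of these had ranks of 617 to 1286 in every replicate.

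Of the ncRNA genes that hold a microRNA hairpin on their own strand, 8 of 37 (21.6%) had these peaks, beside 230 of 2508 other ncRNA genes (9.17%). This grouping was made after the values had been seen. The 8 were lncRNA:CR31044 (mir-279 and mir-996), lncRNA:CR43626 (mir-282), lncRNA:CR43857 (mir-275), lncRNA:Hsromega (mir-4951), lncRNA:CR45916 (mir-9a), lncRNA:CR46006 (mir-276a), lncRNA:CR43334 (mir-ban) and lncRNA:CR43650 (mir-8). Their highest ranks were 57, 274, 739, 870, 1032, 1875, 2761 and 3766. The hairpin-holding genes had 1.65 annotated starts on average against 1.06 for the others. Among genes with 1 start, 3 of 23 (13.0%) and 219 of 2393 (9.15%) had a peak. The part of the number of starts in the difference was not tested.

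Of 18 well-studied long or structural RNA genes, 4 (22.2%) had a peak that met the rule, beside 9.35% of all ncRNA genes. This list, too, was chosen with earlier results known, and the difference was not tested. The peak 194 bp inside lncRNA:Hsromega, the heat shock RNA that organises nuclear omega speckles, had a score of 376.5 and ranks of 899, 1067 and 1013. lncRNA:yar, which affects sleep, had a summit 734 bp upstream with a score of 130.7, and lncRNA:TS14 one at 749 bp with 119.8. lncRNA:flam, the piRNA cluster that restrains transposons in the follicle cells of the ovary, had one 169 bp upstream with 113.7, in the top list of replicate 3 only. None of the others, the roX RNAs of dosage compensation among them, had one, and lncRNA:roX1 lay 4623 bp from the nearest reproducible summit. None of the 30 listed spliceosomal and 7SK RNA genes had one (0%). The start of snRNA:7SKa was 1035 bp from a summit with a score of 545.7, just outside the limit.

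The 11 tRNA peaks had a median score of 152.5, against 193.3 for all reproducible peaks, and ranged from 113.9 to 303.7. tRNA:Gln-TTG-2-1 had the strongest, 211 bp upstream with a score of 303.7 and replicate ranks of 1111, 1808 and 1614. Next came tRNA:Glu-CTC-3-1 with 265.9, tRNA:Phe-GAA-1-6 with 265.1, tRNA:Lys-TTT-1-1, in an intron of the tyrosine kinase gene Btk, with 196.9, tRNA:Leu-CAA-2-2 with 156.9, tRNA:Met-CAT-1-3 with 152.5, tRNA:Pro-AGG-1-7 with 147.7 and tRNA:Ser-GCT-2-3 with 143.3. None of the 11 was among the strongest 1000 reproducible peaks, a set that holds 19.8% of all reproducible peaks and 22.8% of the 294. With 11 peaks this count says little. Of the 2 snoRNA peaks, that near snoRNA:Me18S-G1358a in an intron of drn had 532.8 and ranks of 345, 486 and 660. That near snoRNA:Or-ACA6 in an intron of egr, the fly TNF gene, had 121.1 and was in the top list of replicate 2 only.

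Each of the 294 peaks was in the top list of at least 1 replicate, and 169 (57.5%, 51.8 to 63.0) were in all 3, against 56.0% of other non-promoter peaks. Top lists overlapped 83.7% of them in replicate 1 (79.0 to 87.5), 86.1% in replicate 2 (81.6 to 89.6) and 73.8% in replicate 3 (68.5 to 78.5). The mean over replicates was 81.2% ± 6.49 (SD, n = 3). Other non-promoter peaks had 82.8%, 82.1% and 75.7%. Replicate 3 held fewest in both groups. Among the 294, 45 were missing only from replicate 3's top list, 24 only from replicate 1's and 15 only from replicate 2's. No candidate of replicate 3 overlapped 46 of them (15.6%), as against 12.6% of other non-promoter peaks and 27.5% of promoter peaks. The reproducible list was made from these replicates, so high support is partly built in.

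Low GC content at the summit was shared by most of these peaks. The window of 50 bp to each side of the summit held 30.5% ± 7.19 G and C (SD, n = 294), and windows 400 bp to each side 46.1% ± 8.95 (n = 588). GC was lower at the summit than in the mean of its 2 flanks for 272 peaks (92.5%). Other non-promoter summits held 31.0%, and the arms as a whole 41.9%, so both groups of non-promoter summits were poorer in G and C than the arms.

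The motif counts showed the same pattern of summit against flank. TATAAA, on either strand, was in 25.5% of the 294 windows (20.9 to 30.8), in 25% of other non-promoter windows, in 9.86% of flanks and in 11.8% of all tiles of the same length along the arms. AATATT was in 17.0% (13.1 to 21.7), 20.7%, 3.91% and 8.67%. GAGAG, which GAGA factor binds, was in 7.82% (5.27 to 11.5), 8.49%, 18.9% and 11.5%, fewer at summits than in flanks. CACGTG was in 1 window, 0.340% (0.0601 to 1.90), against 0.506% of other non-promoter windows, 1.53% of flanks and 1.16% of tiles. TATCGATA was in none, which allows a share of up to 1.29%, and 0.277% of tiles held TATCGATA. The B box of tRNA promoters, searched by its usual consensus, was in 1 of the 294 windows, 0.340% (0.0601 to 1.90). No other non-promoter window and no flank held it, and 0.0352% of tiles did. The motifs were counted separately, and TATAAA and AATATT can share letters where they adjoin. A match is a description of the window only.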

How the data were processed

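ChIP-seq peak lists of 3 biological replicates of 1 group were used in build dm6: a reproducible list of 5056 peaks, a pooled list and a list per replicate, each of the latter with 30000 candidates. Per the labels, the reproducible list was made by the authors with an irreproducible discovery rate threshold; neither the aligner nor the peak caller is named in the labels or files used here. The signal score and the summit were taken as deposited by the authors; the scale of the signal score is not stated, and it was used only within 1 list. The −log10 q-value, also deposited, was read only to describe the lists. No read counts are given, which leaves sequencing depth unknown and limits the intervals to counting error over peaks. The labels do not say that replicates came from separate collections of animals beyond calling them biological.

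Starts were taken from every transcript in Ensembl release 115 (BDGP6, annotation version 54), and records of mature microRNAs, which repeat the hairpins, were left out. The pre_miRNA class was taken from transcript biotypes. Sequences and mature microRNA positions came from the Release 6 genome and RefSeq. Coordinates are 1-based.

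A summit was assigned to the class of its nearest non-coding start. Shares of summits were compared with shares of bases of the 7 arms by two-sided exact binomial tests with 95% Wilson intervals and a threshold of 0.05, with Benjamini-Hochberg adjustment over 5 biotypes. A gene had a peak when a summit that met the rule lay within 1000 bp of a start. A replicate's top list was its 5056 strongest regions, overlapping a peak by at least 1 bp. GC content and motifs were read in windows of 50 bp to each side of a position. Non-overlapping classes of sequence were assigned in the order exon of a non-coding gene, exon of a protein-coding gene, intron of a protein-coding gene, intron of a non-coding gene, intergenic. The distance and share code was tested on simulated data. Scripts ran in Python 3.11.15 with pandas 2.3.3, scipy 1.17.1 and numpy 2.4.6.

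The peaks, lists and tests were chosen with earlier results of these data known. Named genes are those of the 20 strongest peaks, of the 8 strongest per small RNA class, of the well-studied list, those with most summits (up to 5; lncRNA:CR45352, tied with the last of these, was added), and the weakest and edge peaks. From the well-studied list, mir-263a, bft and pncr009 matched no gene symbol. Genes holding hairpins and the hairpins of ranks beyond that rule were named after their values were seen. So were the distances of roX1, the let-7 cluster, mir-92a and 7SKa. Alternatives covered window sizes, annotation records, denominators, GC content, merging, list strength and overlap criteria. A further set put aside each replicate's own list in turn, while the reproducible list stayed that of all replicates.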

Additional observations from a re-analysis of the deposited data

How the results depend on the processing

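The excess of summits over bases kept its direction and passed the threshold under 24 of 26 alternatives, with shares between 2.97% (500 bp window, 1.88% of bases) and 26.9% (introns of non-coding genes alone) and ratios between 1.41 (2000 bp window) and 3.19 (intergenic sequence alone). The other 2, chosen after seeing the data, took 1 class of sequence each: in exons of non-coding genes 65.6% of 96 summits met the rule against 67.3% of bases (exact binomial p = 0.744), and in exons of protein-coding genes 4.65% of 43 against 2.50% (exact binomial p = 0.293). With non-promoter bases weighted to the sequence classes of the summits, an alternative chosen after seeing the data, the ratio was 1.80. Weighted to their GC content, also unplanned, it was 1.88. The other classes of sequence taken alone, the weaker peaks and mature microRNA records as starts were unplanned too. The share of 26.9% and the ratio of 3.19 are from such unplanned alternatives. Among planned ones the highest share was 9.36% (2000 bp window) and the highest ratio 1.91 (non-promoter summits and bases). Keeping only peaks in the top lists of both other replicates, for each replicate in turn, gave shares of 5.76% to 6.0%. The reproducible list itself was still made from all replicates, so no replicate was fully left out. By biotype, 1 call changed: with a 2000 bp window the snoRNA share of 0.0593% against 0.229% of bases passed the threshold (exact binomial test, adjusted p = 0.0180), below the share of bases as before; the cause was not tested. Mean replicate support was 70.1% with a reciprocal overlap of at least 50% and 94.4% when all candidates counted, as those criteria are stricter and looser. Gene counts followed the window by construction: at 500 bp, 136 ncRNA, 5 pre_miRNA, 2 snoRNA and 4 tRNA genes had a peak, and at 2000 bp 371 ncRNA, 15 snoRNA and 28 tRNA genes. Keeping only peaks in the top lists of both other replicates left fewer peaks, and then 144 to 173 ncRNA, 8 to 11 pre_miRNA, 1 to 4 snoRNA and 9 to 11 tRNA genes had one. With overlapping peaks merged the median score was 196.9. Signal given as ranks in each replicate had medians of 2316, 2536 and 2072 for these peaks, 2837, 2900 and 2176 for other non-promoter peaks and 2584, 2624 and 2019 for all peaks listed. No paired analysis was possible because there is 1 group. The number of peaks limits the small classes: with 0 to 11 summits each, their intervals span ratios from under 0.6 to over 1.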
